A study of Porphyridium purpureum with 12 samples.

Results

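Of the 9898 genes counted in Porphyridium purpureum, 46 stood higher at both stages of nitrogen limitation than in nitrogen-replete cells and stayed at that height in late depletion. They were picked from the deposited counts themselves. The counts of each library were divided by its DESeq2 size factor (the median ratio to a reference made from all libraries), and the result is called the normalised count here. Members had a mean normalised count of at least 50 in one condition or more. On the log2(mean + 1) scale, each later condition lay at least 1.5 above the nitrogen-replete one, which is about 2.83-fold, and the latest condition lay less than 1 from each of the limitation conditions. Of the genes in the table, 47 met these terms, and 1 of them, POR2196, was set aside together with 3 others that did not meet them. The conditions were the residual nitrate levels of one strain, 1380/1A. NR (nitrogen-replete) had 1.5 g/L NaNO3, NL1 and NL2 (nitrogen limitation) had 0.6 and 0.5 g/L, and LND (late nitrogen depletion, ND in the sample labels) had 0.3 g/L. All cells grew in a modified Provasoli medium under continuous light. The conditions follow each other in time, from early logarithmic growth to the stationary phase, so the effects of nitrate, of age and of growth phase cannot be told apart. Each condition had 3 libraries, 12 in all, and the labels describe these as technical libraries from a single biological sample per condition. Every spread and p-value below therefore covers differences between libraries and not between cultures.

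Porphyridium is a unicellular red alga that surrounds itself with a sulfated polysaccharide. It holds much of its nitrogen in phycobiliproteins, the pigment proteins of its light-harvesting antennae. When nitrate becomes scarce, algae generally slow their division, draw on internal nitrogen stores and direct fixed carbon into polysaccharide and other storage compounds. None of the 46 members carried a product name in those of the study's tables that were read here (0 of 46). They are therefore given by their identifiers, and no role is assigned to them. The paper reports a gene annotation of its transcriptome, so this does not mean that the study left the members without a name.

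Library totals ran from 6398926 to 30556820 counts, and NR replicate 3 was both the smallest library and the one that stood apart from its condition. Libraries of the same condition differed beyond sampling noise in every pair, with a chi-square of 11.2 to 96.9 per degree of freedom, so each was counted as its own library. Members had NR means of 20.4 to 56421 normalised counts and the middle value was 614. The NR mean of 5 members was under 50. As the values in NR, NL1, NL2 and LND chose the members, the rises below are a description and carry no test.

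POR5227 had the largest rise. Its normalised counts were 483, 437 and 1072 in the NR libraries and 14925, 32422 and 15111 in those of NL1. NL2 had 13038, 12635 and 11954, and LND had 17123, 18919 and 18328. The lowest later library held 11.2 times the highest NR value, and NL1 replicate 2 held 2.16 times the mean of the other NL1 libraries. Against NR, the log2FC was 5.02 ± 0.47 (SE) for NL1, 4.28 ± 0.34 for NL2 and 4.76 ± 0.35 for LND.

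POR0766 had 1396, 1205 and 405 normalised counts in NR, and 7712, 13195 and 10283 in NL1. It held 9017, 9420 and 8700 in NL2 and 15191, 16092 and 15774 in LND. All 3 LND libraries lay above all 6 NL libraries, and NR replicate 3 lay far below the other NR libraries. POR4585 went the other way among the later conditions. Its NR values were 1202, 1336 and 933, and its NL1 values of 16401, 18321 and 17189 lay well above those of NL2 (10599, 10947 and 10577) and LND (9663, 10702 and 10909). Its highest level therefore came at the first limitation stage, and the later stages overlapped. POR8741 stepped down in the same order, with 2140, 1995 and 2030 in NL1, 1626, 1706 and 1601 at the second limitation stage and 1440, 1262 and 1261 in late depletion. Its NR libraries held only 202, 140 and 117, so the lowest later library was still 6.24 times the highest NR library.

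POR1885 was the least counted of the 8 members with the largest rises. It had 91.0, 44.7 and 5.55 normalised counts in NR, which for replicate 3 was 2 reads, and 290 to 451 in the NL libraries and 366 to 489 in LND. The SE of its log2FC vs. NR was the widest of the 8, at 0.62 for NL1 (2.86), 0.61 for NL2 (2.92) and 0.59 for LND (3.11). POR5977 had a narrow plateau with a small step at its end, from 468, 491 and 219 in NR to 2259, 2294 and 2383 in NL1. NL2 had 2205, 2345 and 2754, and LND had 3140, 3329 and 3089. The LND libraries again lay above all NL libraries.

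**Figure D1:**
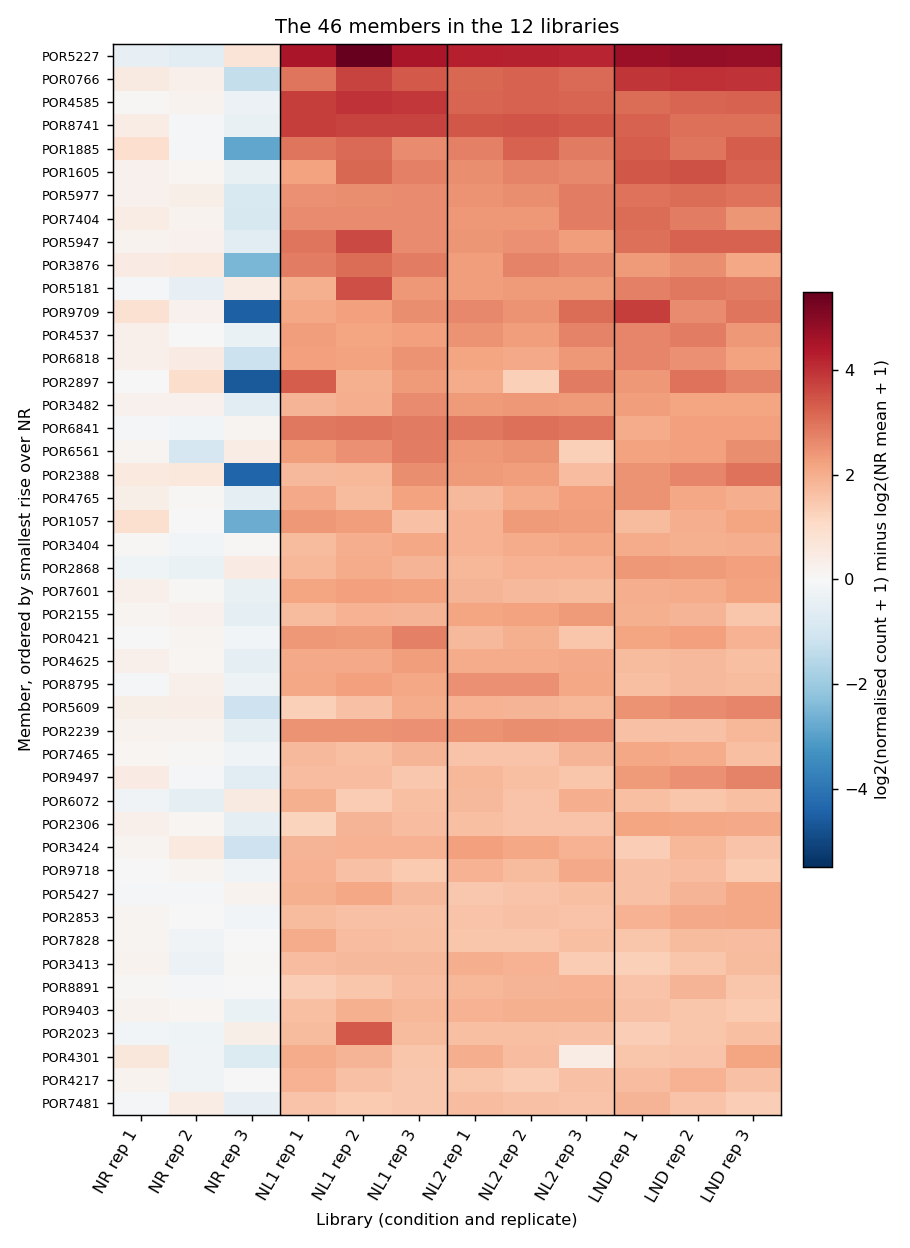
Heat map of the 46 members (rows, ordered by their smallest rise over NR) in the 12 libraries (columns). Colour is log2(normalised count + 1) minus log2(NR mean + 1), from blue below the NR mean to red above it. The NL1, NL2 and LND columns are red for nearly all members, NR replicate 3 is the bluest column, and NL1 replicate 2 is darker than its neighbours for POR5227, POR5947, POR5181 and POR2023.

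A few members took most of the reads. Counts were not divided by gene length, since no length was at hand, so a large count here says how many reads a gene gave and not that its transcript was more abundant than another. In NR, the members together took 0.940% ± 0.152 (SD, n = 3) of all gene counts. Their share was 4.43% ± 0.318 for NL1, 3.99% ± 0.251 for NL2 and 3.97% ± 0.328 for LND. Their share of the reads was thus 4.23 to 4.71 times that of NR, and the ranges of the later conditions overlapped (4.22 to 4.79% in NL1, 3.85 to 4.29% in NL2, 3.61 to 4.25% in LND). The 95% Wilson interval of each share is at most 0.00913 percentage points to either side and covers counting error only. The 6 members with the most reads made up most of it, with 0.753% ± 0.139 for NR against 3.36% ± 0.212 for NL1, 3.06% ± 0.261 for NL2 and 3.23% ± 0.358 for LND, and 3 members gave more than 50% of the members' reads in LND.

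POR7465 gave the most reads of all members. Its libraries had 61576, 58654 and 49033 normalised counts in NR and 193815, 179433 and 205453 in NL1. NL2 had 169156, 168087 and 203563, and LND had 249119, 229502 and 180261. It took 0.299% ± 0.0205 of all counts in NR and 1.00% ± 0.0761 in NL1. POR6818 and POR7404 followed, with NR values of 37422, 41577 and 13597 for POR6818 and of 22737, 19707 and 9412 for POR7404. In LND they reached 200585, 175653 and 144590 (POR6818) and 143816, 122743 and 93797 (POR7404). These 3 genes also shared the order of some libraries within a condition. For each, NL2 replicate 3 was the highest NL2 library, LND replicate 1 the highest LND library and LND replicate 3 the lowest. Other members, such as POR4765 and POR2155, had the same order. Among all members, NL2 replicate 3 was the highest of its condition in 19. LND replicate 1 was the highest in 15 and LND replicate 3 the lowest in 20. How many of all genes had this order was not counted, so nothing is read from it. The NL and LND libraries of POR7465, POR6818 and POR7404 overlapped throughout.

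POR1605 rose from 13203, 11862 and 8332 in NR to 52159, 99205 and 76831 in NL1. NL2 had 65791, 73519 and 68527, and LND had 118920, 124637 and 104983, with every LND library above every NL library. POR2306 had the same shape at a smaller height, from 12414 to 21289 in NR and 40628 to 63469 across the NL libraries to 73959 to 77611 in LND. POR5181 stood out for a single library. It had 8769, 6997 and 12697 in NR and 109649 in NL1 replicate 2, against 37094 and 49496 in the other NL1 libraries, 46409 to 48704 in NL2 and 65312 to 70459 in LND.

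**Figure D2:**
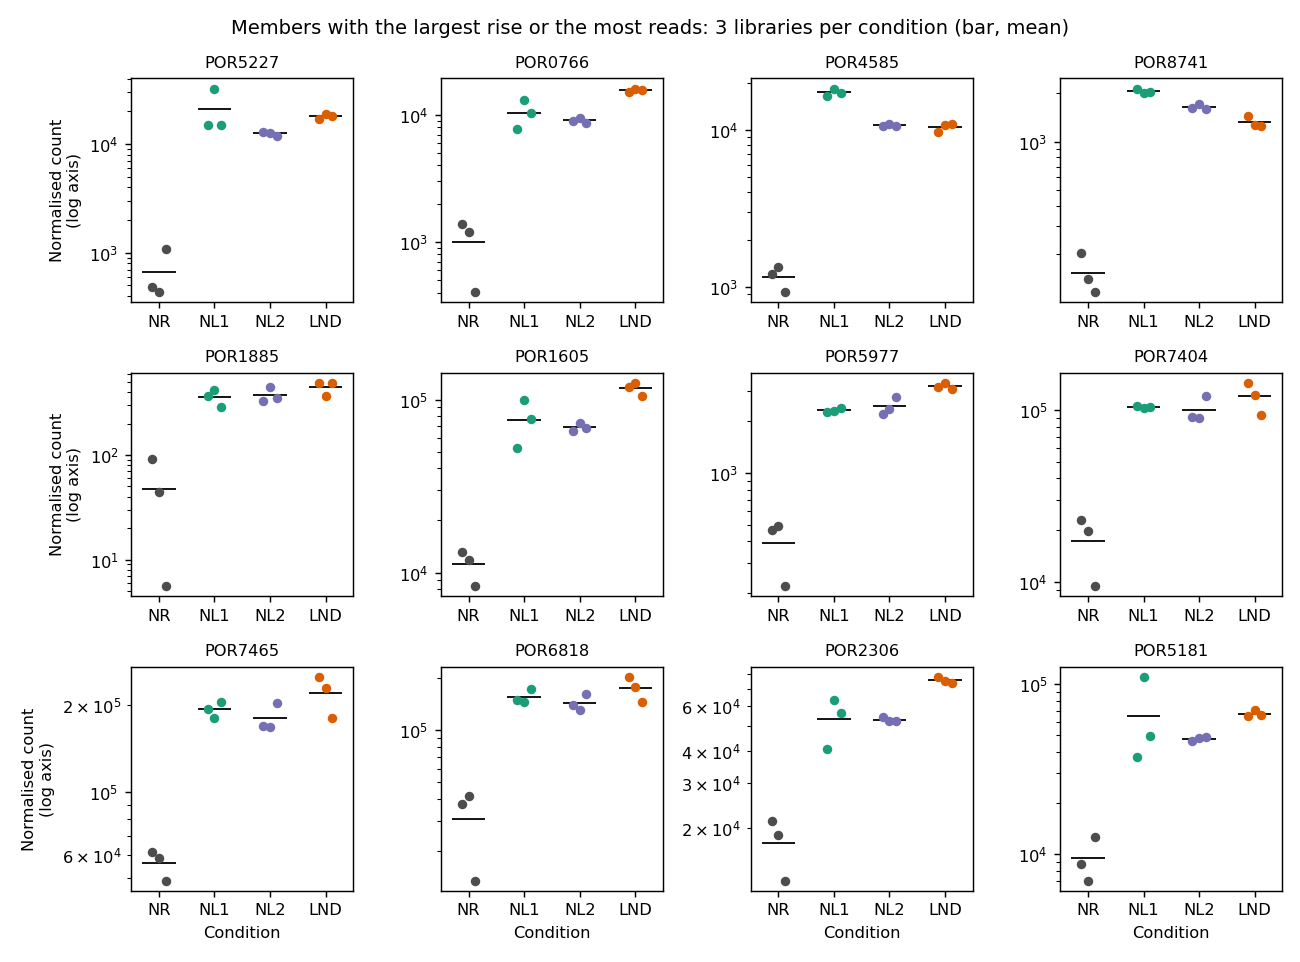
Normalised counts (log axis) of the 8 members with the largest rises and the 6 with the most reads (12 genes, since 2 are in both sets) by condition; each point is a library, in replicate order from left to right, and the bar is the mean of 3. NR libraries lie below all later libraries in every panel, and the LND libraries lie above all NL libraries for POR0766, POR1605, POR5977 and POR2306.

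**Figure D3:**
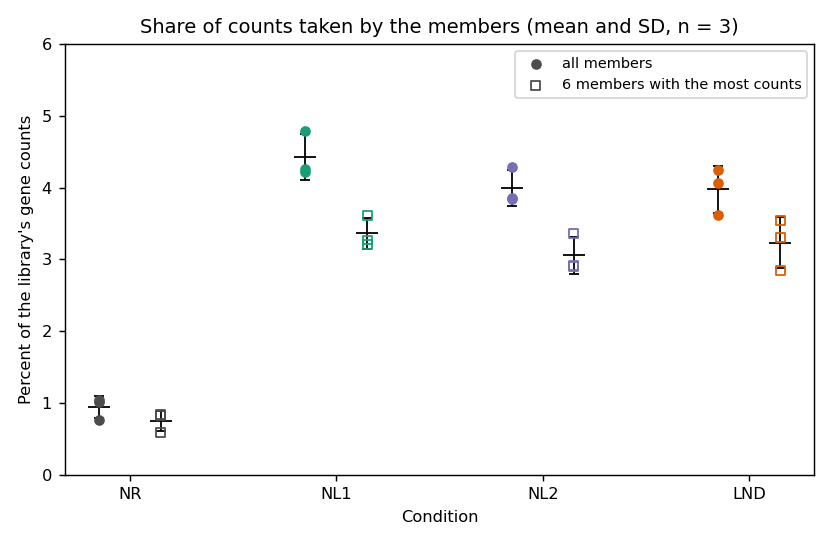
Percent of each library's gene counts taken by all 46 members (filled circles) and by the 6 with the most reads (open squares), with the mean and SD of 3 libraries per condition. The mean share of all members was 0.940% in NR and lay between 3.97% and 4.43% in the later conditions.

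Across all 46 members the rise over NR had a median of 2.16 for NL1, 2.13 for NL2 and 2.15 for LND on the log2(mean + 1) scale. The smallest of the 3 rises was at least 2 in 20 members and at least 3 in 4, and the rest lay between 1.5 and 2. In 45 of the 46, all 9 later libraries lay above all 3 NR libraries, as they did in 12.6% of the genes with at least 1 count; the rise was used to choose the members, so nothing is read from this. The exception was POR4301, with 88.0, 50.7 and 33.3 normalised counts in NR and 77.0 in NL2 replicate 3, below 169 to 264 in the other later libraries. By edgeR's quasi-likelihood test (calls need a log2FC of at least 1 and a Benjamini-Hochberg adjusted p under 0.01), 40 members were called higher in NL1, where 6.55% of all genes tested were, 40 in NL2 (7.33%) and 41 in LND (7.96%), and 39 in all 3 comparisons (2.08%), which share the NR libraries. No member was called lower (0 of 46), where 7.92%, 9.08% and 11.8% of all genes were. These calls use the values that chose the members, so they are a description and nothing is read from their excess over the background. Those that missed a call were POR1057, POR2388, POR2897, POR4301, POR6072, POR6561 and POR9709. Their log2FC in the comparisons missed was 1.53 or more, with an SE of 0.41 to 0.89, and in 6 of them, all but POR2388, the highest NR library held 27.8 to 88.8 normalised counts.

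Members with smaller rises differed in how tight their libraries were. POR3876 had 138, 148 and 16.7 normalised counts in NR and 722 to 863 in NL1. It had 500 to 668 at the second limitation stage and 437 to 594 in late depletion, so NL1 lay above both while the NR libraries were split. POR5947 had 55.5 to 98.4 in NR. Its NL1 libraries had 506 to 1063, those of NL2 413 to 485 and those of LND 699 to 804, and its NL2 libraries were the lowest of the later ones. POR3482 had 3382, 3411 and 1880 in NR and between 10622 and 17618 in all 9 later libraries. Its plateau was one of the flattest, with a range of the later means of 0.15 in log2.

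POR2853 was among the most even members, with 702 to 860 in NR. Its NL1 libraries had 2364 to 2601, those of NL2 2315 to 2366 and those of LND 2959 to 3415. POR7828 had 829 to 1040 in NR and 2706 to 3879 in all later libraries, which overlapped between the conditions. POR8891 had 1574 to 1719 in NR and its highest values in NL2, at 5701, 6048 and 6123, above 4180 to 5263 in NL1, while LND (4735 to 5874) overlapped both. POR2155 likewise had 1950, 1981 and 2217 in NL2 against 1442 to 1611 in NL1 and 1251 to 1687 in LND, over 308 to 510 in NR. At the low end, POR9709 had 39.0, 25.3 and 0 in NR and 95.7 to 313 in the later libraries, and POR6072 had 44.7 to 88.8 in NR and 167 to 250 later.

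The nitrogen-replete libraries set the rises, and they were the least alike. The CV (SD as a percentage of the mean) of the members was 27.8% at the median for NR, against 12.5%, 8.05% and 9.81% for NL1, NL2 and LND. These medians were 19.6%, 12.5%, 11.4% and 11.1% over the other genes with a mean of at least 50 in the same condition. No such limit was set for the members, and 5 of them had an NR mean under 50. NR replicate 3 was lower than the mean of replicates 1 and 2 for 35 of the 46 members. On the log2 scale the median difference was -0.57 over all 46 and -0.69 over these 35, while over all genes with a mean of at least 50 the median difference was -0.02. For 19 members it lay at least 1.5 times below both other NR libraries, and for 3 at least 1.5 times above, where 16.9% and 12.4% of the other genes did. POR2388 was an extreme case, with 709 and 746 normalised counts in replicates 1 and 2 and 22.2 in replicate 3, and POR2897 and POR9709 had 0 reads there. A low replicate 3 lowers the NR mean, so the choice of members favoured genes that were low there. Nothing is therefore read from the excess over the other genes. Without that library 36 of the 46 still met the terms. The 10 that did not were POR1057, POR2239, POR2306, POR3424, POR4217, POR4301, POR5609, POR7481, POR9403 and POR9497, all with a smallest rise under 2. The edgeR call without it was made for 46 members for NL1, 44 for NL2 and 46 for LND, while the genes called higher in all went from 602 to 878, from 672 to 976 and from 728 to 839. The part of library quality in these values was not tested.

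The heights reached after NR were near each other by choice, and the members still took different courses among them. The range of the 3 later means had a median of 0.45 in log2, from 0.06 in POR3404 to 1.00 in POR2023. POR3404, the flattest, had 623, 546 and 633 normalised counts in NR, and its ranges were 2039 to 2632 for NL1, 2236 to 2622 for NL2 and 2321 to 2480 for LND. The highest mean was in LND for 20 members, in NL1 for 12 and in NL2 for 14. This order depended on the scaling. Against library totals alone, the median of all genes with a mean of at least 50 moved from 0.00 to -0.34 in LND vs. NR, and the highest mean then fell in LND for 10 members, in NL1 for 20 and in NL2 for 16. With TMM scaling (edgeR's trimmed mean of M-values) the numbers were again 20, 12 and 14.

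In 8 members all LND libraries lay above all 6 NL libraries, namely POR0766, POR1605, POR5977, POR2868, POR5609, POR9497, POR2306 and POR2853, which is 17.4% against 19.6% of all genes with a count. Among these, POR5609 went from 5277 to 8741 in the NL libraries to 11607, 12932 and 13532 in LND, over 2615, 2730 and 969 in NR. POR9497 went from 619 to 777 in the NL libraries to 1133, 1284 and 1487 in LND. In 7 members all LND libraries lay below all NL libraries (15.2%, against 18.4% of all genes), namely POR8741, POR6841, POR4625, POR8795, POR2239, POR3424 and POR9403. POR6841 had 36978 to 41605 normalised counts in the NL libraries and 21139, 24574 and 24405 in LND, over 4980, 4694 and 5731 in NR. POR2239 had 6019 to 6430 in the NL libraries and 3363, 3345 and 3964 in LND. Against library totals these groups held 2 and 16 members, so the split between a late gain and a late decline rests on the scaling, while the 45 members clear of NR stayed at 45.

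The distance between LND and the NL conditions was part of the choice, so the test of it is a description too. No member was called in LND against either NL condition by edgeR (0 of 46), and none by DESeq2's Wald or likelihood ratio test. Of all genes tested by edgeR, 6.51% were higher against NL1 and 5.75% lower, and for NL2 these shares were 6.96% and 6.52%. At an unadjusted p under 0.05, edgeR gave 11 members higher and 10 lower in LND vs. NL1, where 23.9% and 24.2% of all genes were. Against NL2 it gave 16 members higher in LND and 9 lower, where 25.6% and 24.9% were. DESeq2's Wald test gave 20 and 25 members in either direction, where 45.7% and 48.4% of all genes were. With library totals in edgeR, 4 members were called against NL1 and 2 against NL2, and the calls over all genes went from 1109 to 1407 and from 1217 to 1450.

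NL2 vs. NL1 was the comparison that the terms did not use, although they bound it, since both had to lie within 1 of LND. No member was called by edgeR's quasi-likelihood test, by DESeq2's Wald test or by its likelihood ratio test (0 of 46 each, with a lowest adjusted p of 0.267 in edgeR), and edgeR called 0% of the 9104 genes tested. The median log2FC was -0.03 in the members and -0.01 in all genes, with 24 members below 0 and 22 above. At an unadjusted p under 0.05 there were 2 members higher in NL2 (4.35%, against 4.57% of all genes) and 9 lower (19.6%, against 4.51%). By DESeq2's Wald test, 2 were higher and 7 lower. These values did not pass the correction over all genes, and leaving out each library in turn gave 5 to 12 members lower and 2 to 4 higher. The 5 came without NL1 replicate 2, where 5.34% of all genes were under 0.05 in either direction against 9.08% with all libraries, and the 12 without NL1 replicate 1 (5.44%).

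The smallest p belonged to POR4585, described above, with a log2FC of -0.69 ± 0.11 (SE) in NL2 vs. NL1 by edgeR (adjusted p = 0.267) and all 3 NL2 libraries below all 3 NL1 libraries. POR0421 came next with 728, 706 and 932 normalised counts in NL1 and 478, 535 and 393 in NL2 (-0.75 ± 0.17, edgeR adjusted p = 0.466). Its LND values of 618, 657 and 513 overlapped those of NL2 and lay below NL1, and NR had 137, 151 and 122. POR7601 differed less, with 3751, 3988 and 3843 in NL1 and 3035, 2889 and 2801 in NL2 (-0.41 ± 0.10, edgeR adjusted p = 0.482), and had 3364, 3471 and 3853 in LND. In 10 members all NL2 libraries lay below all NL1 libraries, where 7.29% of all genes did, and in 4 all lay above (6.98%).

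**Figure D4:**
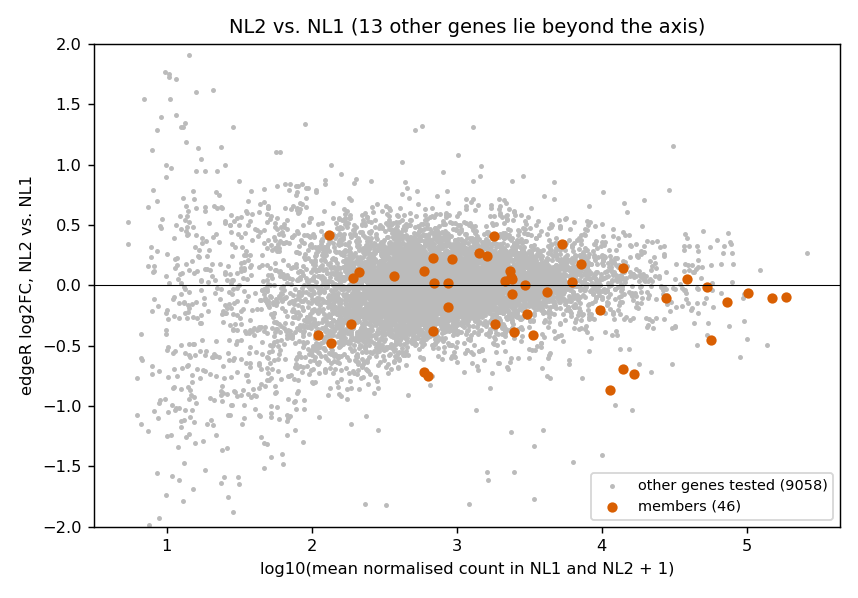
edgeR log2FC of NL2 vs. NL1 (y) against log10 of the mean normalised count in both conditions plus 1 (x), for the 46 members (orange) and the other genes tested (grey). Members run from -0.87 to 0.42, with a median of -0.03, and no member was called.

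Single libraries weighed on some members. NL1 replicate 2 held at least 1.5 times the count of both other NL1 libraries in 4 members, namely POR5227, POR5947, POR5181 and POR2023, against 2.08% of the other genes with a mean of at least 50. POR2023 had 27005 there and 8607 and 8718 in the other NL1 libraries, with 7864 to 8240 in NL2, 6640 to 8161 in LND and 2198 to 3218 in NR. Its LND mean lay 0.997 from its NL1 mean, just inside the limit of 1, and 8607 and 8718 in the other NL1 libraries were close to the NL2 values. Leaving out NL1 replicate 2 kept 45 of the 46 members and lost POR2306. The 1.5 times used here was chosen after the values were seen.

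The members were part of a larger set. Of the 8943 genes with a mean of at least 50, 184 lay at least 1.5 above NR in both NL1 and NL2. In 47 of these (25.5%), the members and POR2196, the level was held in LND within the terms. In 93 (50.5%) LND lay at least 1 below NL1 or NL2, and their median rise over NR was 0.62 in LND after 1.90 and 2.09 in the NL conditions. In 10 (5.43%) LND lay at least 1 above NL1 or NL2, and their median rise in LND was 3.52. The remaining 34 (18.5%) lay within 1 of both NL conditions in LND but under 1.5 above NR, at a median of 1.22. The median NL2 vs. NL1 log2FC of these groups was -0.05, 0.15, 0.08 and 0.04. Seen from LND, 354 genes lay at least 1.5 above NR, and 64 of them did so in both NL conditions too.

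**Figure D5:**
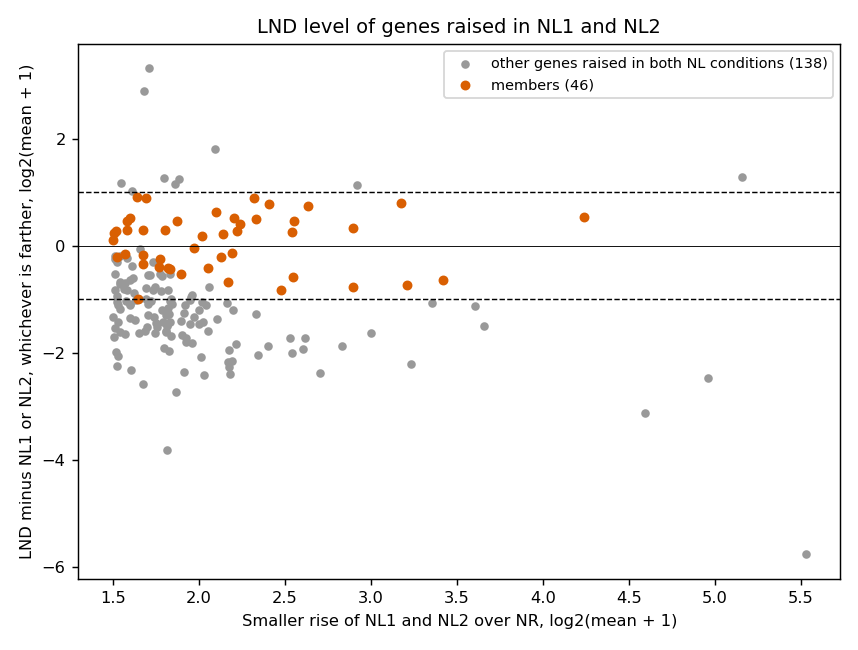
The 184 genes raised at least 1.5 over NR in both NL1 and NL2. The x axis is the smaller of these rises and the y axis is LND minus NL1 or NL2, whichever distance was greater, both in log2(mean + 1). Members (orange) lie between the dashed lines at -1 and 1 by choice; grey points between the lines are the 34 genes whose LND rise was under 1.5 and POR2196, and most other grey points (93) lie below.

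The floor left few genes at its edge, and the rise left more, with 11 members under 1.6. Those just inside the floor of 50 were POR6561, with a largest mean of 125 normalised counts, and POR2897 with 164, while POR8036 (38.7) and POR2632 (35.7) were just outside, and 3 genes in all were left out by the floor alone. At the rise of 1.5, POR7481 (1.50) and POR4217 (1.51) were inside and POR7584 (1.495) and POR5175 (1.49) outside. At the distance of 1, POR2023 (0.997) and POR9497 (0.909) were inside and POR8906 (1.02) and POR7835 (1.06) outside. Across the 12 leave-one-out runs 29 of the 46 members met the terms every time.

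The scaffold part of the identifiers says where a gene lies, although not its position. The members were spread over 15 of 52 scaffolds. Most lay on the long ones, with 9 of 2626 genes on scf295_1, 7 of 1199 on scf208_2 and 6 of 1070 on scf209_3. Among the 28 scaffolds with fewer than 30 genes, which hold 300 genes in all, 3 carried 7 members, where 0.465% of all genes are members. Whether members gather on small scaffolds was not tested, so nothing is read from this count. The 3 scaffolds were scf250_33 with 3 of 21 genes, scf252_32 with 2 of 19 and scf276_29 with 2 of 17. On scf276_29 these were POR7465 and POR7404, which are among the 6 members with the most reads. On scf250_33 they were POR5227 and POR4585, both among the 4 members with a smallest rise of at least 3, and POR6561. Of the 18 other genes of scf250_33, 2 had no count, 5 had all later means above NR and 7 had all of them below. All later means were at least 1 above NR in log2 for 2 of them, which were POR1455, with means of 366 (NR), 2399 (NL1), 825 (NL2) and 7124 (LND) normalised counts, and POR9701, with 116, 532, 406 and 979 in this order. Both lay at least 1 (log2) higher in LND than in NL2. POR9001, with 323, 153, 153 and 176, is one of the 7 below NR. The paper does not state how reads that match near-identical genes were counted, and whether genes on these small scaffolds have such copies was not tested.

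No member was in any of the 10 gene lists copied from the study's tables (0 of 198 listed genes). POR2196, which met the terms and was set aside, is on the glycolysis list, and only 0.465% of all genes are members, so nothing is read from this. The study drew most of the lists from these libraries, so their directions are not independent evidence. Against NR, edgeR called 51 listed genes higher and 19 lower for NL1, 51 and 27 for NL2, and 54 and 26 for LND. Of all genes tested, 6.55% were called higher and 7.92% lower for NL1. For NL2 these shares were 7.33% and 9.08%, and for LND 7.96% and 11.8%. In all 3 comparisons, 11 listed genes were called higher, which is 5.56% of the lists against 2.08% of all genes tested. More listed genes, 14, were called lower in all 3, and the share of all genes lower in all 3 was not counted. Among the 11 called higher, 4 on the photosynthesis and oxidative phosphorylation lists had LND means near their NL means and smaller rises than the members. They were picked from these lists and are given below, after LHCA1, which is not one of them. Genes on other lists had LND within 1 of both NL conditions too. These were POR9095 on the glycolysis list and POR3279 and POR4239 on the list of carbohydrate-active enzymes. Their smallest rises were 1.34, 1.30 and 1.10. POR2835 and POR9095 were among the genes set aside at the start. The light-harvesting gene LHCA1 (POR2835), also listed under photosynthesis, had 15262 ± 3668 normalised counts (SD, n = 3) in NR, 62931 ± 15266 and 71155 ± 4390 in the NL conditions and 33160 ± 2667 in LND, where it was lower than in NL2 (edgeR log2FC -1.10 ± 0.08, adjusted p = 5.22e-08). The Rieske iron-sulfur subunit gene petC (POR2665) of the cytochrome b6f complex, which passes electrons between the photosystems, had 21530 ± 2716 normalised counts (SD, n = 3) in NR. Its counts were 47340 ± 3569 for NL1, 49555 ± 2060 for NL2 and 49801 ± 4396 for LND. Against NR, its log2FC was 1.17 ± 0.18 (SE) for NL1, 1.23 ± 0.16 for NL2 and 1.18 ± 0.17 for LND, with edgeR adjusted p of 0.00100, 0.000283 and 0.000419. The acyl carrier subunit gene of mitochondrial complex I (POR8552), which takes part in the first step of the respiratory chain, had 175 ± 17.3, 527 ± 41.6, 560 ± 81.7 and 479 ± 58.7 in NR, NL1, NL2 and LND. Another complex I subunit gene, POR6624, had 1128 ± 165, 2780 ± 145, 2793 ± 264 and 2738 ± 369. The subunit E gene of the V-type ATPase (POR3560), a proton pump of internal membranes, had 1435 ± 477, 3707 ± 403, 3719 ± 538 and 3082 ± 169. All 3 were called higher in each comparison with NR by edgeR, with a log2FC of 1.08 to 1.69, and their smallest rises of 1.10 to 1.45 lay under the 1.5 asked of members.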

How the data were processed

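The authors aligned paired-end reads of stranded mRNA libraries with STAR 2.7.8a, checked them with FastQC and counted reads per gene with featureCounts 2.0.1. The submitters' notes also name DESeq2 1.34.0. The deposited values are raw counts with no normalisation. Whether the counting used strand is not given in the sources used here, so overlapping genes on opposite strands may share reads. Each table column matched 1 sample label (0 unmatched).

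Group means and per-library values used counts divided by DESeq2 size factors (Python 3.11.15, pandas 2.3.3). For each pair of conditions, edgeR 4.0.16 in R 4.3.3 was run on the 6 libraries concerned. TMM scaling, the quasi-likelihood test and a filterByExpr minimum of 10 counts were used, with Benjamini-Hochberg adjustment over all genes of the fit. All 46 members passed the filter in each fit. The SE is the size of the log2FC divided by the square root of F. A call took a log2FC of 1 or more in size and an adjusted p under 0.01. DESeq2 1.42.0 was the alternative tool. The fit was also run on simulated counts with planted changes. The outcome is not given here, and no result above rests on it. The members and lists were chosen with earlier results of these data known. Named by rule were the 8 members with the largest smallest rise, the 6 with the highest mean over the later conditions, the 3 with the smallest p in NL2 vs. NL1, and the 2 genes on either side of each threshold. Genes named beyond these were chosen after their values were seen. Alternatives were other scalings, thresholds, tools, filters, a replicate block and leaving out each library.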

Additional observations from a re-analysis of the deposited data

How the results depend on the processing

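The number of members changed most with the terms and with the NR libraries. A rise of at least 1 gave 235 genes, a rise of at least 2 gave 20, and LND within 0.5 of NL1 and NL2 gave 28. Leaving out each library gave 43 to 87 genes, with 87 without NR replicate 1 (44 of them members), 63 without NR replicate 2 (39 members) and 60 without NR replicate 3 (36 members). TMM scaling gave 52 genes including all 46, and library totals gave 36, of which 29 were members. Members called without each library in turn numbered 33 to 46 in NL1 vs. NR, 36 to 44 in NL2 vs. NR, and 35 to 46 in LND vs. NR, and all genes called higher in these runs numbered 424 to 878, 506 to 976 and 557 to 839. Against NL1 the LND calls of members numbered 0 to 2, and both NL2 vs. NL1 and LND vs. NL2 had 0. Over all genes, these runs called 1008 to 1137 in LND vs. NL1, 1151 to 1298 in LND vs. NL2 and 0 to 40 in NL2 vs. NL1. The 40 came without NL1 replicate 3. With library totals in edgeR, 4 members were called in LND vs. NL1 and 2 against NL2. Replicate numbers did not pair the libraries, since same-numbered libraries deviated from their condition means with correlations of -0.22 to 0.10, and a library's own number gave its best match in 5 of 18 cases. With a replicate block, 38, 40 and 39 members were called in NL1, NL2 and LND vs. NR, and 0 in each of the other comparisons. Over all genes, the block called 596, 660 and 741 higher than NR at these stages. Late depletion differed from the first limitation stage in 1131 genes and from the second in 1181, and the limitation stages differed in 0. The terms bound the distances between the later conditions, so nothing is read from the 0 members called there. For named members, 343 of 351 values of log2FC under an alternative moved by less than the spread between libraries or kept their side of the threshold. The other 8 moved further, 6 of them in LND vs. NR against library totals. The spread was each gene's own, so a gene with uneven libraries could move far and still be counted within it. POR1885 in NL1 vs. NR went from 2.86 to 3.73 without NR replicate 1 and to 2.42 without NR replicate 3, and both were counted so. No value changed sign, but these members were chosen for their rises, reads or small p, so nothing is read from this. POR1885, POR2897 and POR9709 had 2, 0 and 0 reads in NR replicate 3, which lowered their NR means and so made their rises larger.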
